A study of Mus musculus with 33 samples.

Results

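Kctd12, Ctla2a, Anxa1, Adam8, Rgs2, Nebl, Plac8 and Serpinb1a are 8 genes of 31054 counted in bulk RNA-Seq libraries of sorted mouse cells, and they were listed because earlier results of these data placed them higher in CD127hi or graft Tregs than in other Tregs. They were chosen by measured levels, as differences of CD127hi or graft Tregs from the Tregs of naive mice or from CD127-/lo Tregs, so these differences are described here without a test. Each of 11 cell groups had 3 libraries, 33 in all. All mice were DEREG mice on the C57BL/6 background, in which EGFP and the diphtheria toxin receptor are driven by the Foxp3 promoter, so that Tregs were sorted as CD4+GFP+ cells. Tolerant mice were male and had received 4000 islet equivalents of porcine neonatal islet cell clusters (NICC) under the renal capsule, with 500 µg doses of MR1, an antibody against CD154, and 500 µg of CTLA4-Fc, and their cells were taken at day 100. They gave CD127hi and CD127-/lo Tregs of the spleen (SP/CD127hi and SP/CD127-/lo) and of the draining lymph node (DLN/CD127hi and DLN/CD127-/lo), graft Tregs and, from the spleen, CD45+CD4- cells and CD4+Foxp3- T cells. Naive mice without a graft or treatment gave SP/naive Tregs, DLN/naive Tregs and the same pair of Foxp3- spleen populations, and the methods describe the mice of the spleen as male and those of the lymph node as female. The libraries are described as pools of several mice, and how the naive mice map to libraries is unclear, so that p-values measure only the spread between these libraries.

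The 8 genes belong to different families. Adam8 is a membrane metalloprotease of the ADAM family that sheds surface proteins of leukocytes. Serpinb1a is an intracellular inhibitor of the serine proteases of granules, and Ctla2a resembles the propeptide of cathepsins and inhibits cysteine proteases. Rgs2 is a GTPase-activating protein that shortens signals of G protein-coupled receptors, and Kctd12 is an auxiliary subunit of GABA-B receptors. Anxa1 encodes annexin A1, a phospholipid-binding protein induced by glucocorticoids and known for its role in resolving inflammation. Nebl encodes nebulette, an actin-binding relative of nebulin, and Plac8 encodes a small cysteine-rich protein found in myeloid cells and plasmacytoid dendritic cells. Tregs are CD4+ T cells that depend on Foxp3, and CD127, the α chain of the IL-7 receptor, is low on most resting Tregs and higher on some antigen-experienced ones.

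All 8 genes lie on the minus strand of GRCm38. Kctd12 (ENSMUSG00000098557) is on chromosome 14 from 102976581 to 102982637, Ctla2a (ENSMUSG00000044258) on chromosome 13 from 60934155 to 60936625, and Anxa1 (ENSMUSG00000024659) on chromosome 19 from 20373428 to 20390944. Adam8 (ENSMUSG00000025473) is on chromosome 7 from 139978932 to 139992562, Rgs2 (ENSMUSG00000026360) on chromosome 1 from 143999338 to 144004161, and Nebl (ENSMUSG00000053702) on chromosome 2 from 17343909 to 17731464. Plac8 (ENSMUSG00000029322) is on chromosome 5 from 100553725 to 100572245, and Serpinb1a (ENSMUSG00000044734) on chromosome 13 from 32842092 to 32851185. Ctla2a has a near copy, Ctla2b, on the same chromosome. The bases upstream of both are shown because they are alike. Ctla2a had 4085 and Ctla2b 114 read pairs over all libraries, but genes annotated on the same strand (Gm49392 and Gm49391) overlap 82.7% of the exon bases of Ctla2b, against 18.4% for Ctla2a (Gm49393 and Gm49391). Read pairs in such overlaps may be missing from the counts, so the levels of the copies are not compared. Capitals mark TGANTCA, the AP-1 element, and TGACGTC, part of the cAMP response element, both searched on either strand in 250 bases before the start in the RefSeq promoters of GRCm38.p6.
Ctla2a, chr13:60936626-60936875, minus strand: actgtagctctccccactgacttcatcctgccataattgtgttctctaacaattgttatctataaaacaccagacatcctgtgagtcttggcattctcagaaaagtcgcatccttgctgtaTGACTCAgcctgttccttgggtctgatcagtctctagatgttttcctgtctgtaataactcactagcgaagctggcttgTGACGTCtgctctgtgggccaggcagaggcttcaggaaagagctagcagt
Ctla2b, chr13:60897448-60897697, minus strand: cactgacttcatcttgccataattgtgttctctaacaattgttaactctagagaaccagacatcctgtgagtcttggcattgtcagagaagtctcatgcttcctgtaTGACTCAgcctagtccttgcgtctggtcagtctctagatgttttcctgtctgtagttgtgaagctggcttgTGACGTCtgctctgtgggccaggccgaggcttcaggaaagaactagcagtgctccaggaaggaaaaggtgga
Both windows hold 1 match to each element, and 209 of 272 aligned columns (76.8%) are identical. Among 32817 mouse promoters, 6.75% hold the AP-1 letters and 2.78% the TGACGTC letters in a window of the same length. TGACGTC is also part of TGACGTCA, which neither window holds. The forkhead letters TGTTTAC, held by 3.16% of promoters, were found upstream of Adam8 and not in the other windows of the listed genes that were searched, which were those of Kctd12, Ctla2a, Anxa1, Rgs2, Nebl and Plac8. The forkhead match is shown in capitals because forkhead is the family of Foxp3.
Adam8, chr7:139992563-139992812, minus strand: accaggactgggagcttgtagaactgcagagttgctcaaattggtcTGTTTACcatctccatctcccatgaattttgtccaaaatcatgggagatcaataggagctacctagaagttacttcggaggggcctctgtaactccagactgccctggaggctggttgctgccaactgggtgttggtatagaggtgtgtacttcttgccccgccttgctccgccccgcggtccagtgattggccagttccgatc
TGACGTCA (1.55% of promoters), GGGCGG (32.7%), CCAAT (33.8%) and TATAAA (12.4%) were searched as well. Serpinb1a is named only. A match is a description of the letters and does not say that a factor binds there.

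Levels are CPM, the read pairs of a gene per 1000000 read pairs on genes, with totals scaled by the TMM method, as mean ± SD of 3 libraries where a mean is given. The totals on genes were 2550698 to 4615283 read pairs in the 24 spleen and graft libraries and 844039 to 1935323 in the 9 DLN libraries, and 3 counts, the limit that a count of 0 allows, came to 0.636–1.18 CPM and 1.64–3.11 CPM with these scaled totals. These limits cover counting error only. The DLN libraries were run on another sequencer than the rest, and what comes from the tissue and what from the machine cannot be told apart. Foxp3 had 166–672 CPM in Treg libraries and at most 8.20 CPM in Foxp3- libraries. Il7r, which encodes CD127, had 1234, 1082 and 1198 CPM in SP/CD127hi against 270, 303 and 360 CPM in SP/CD127-/lo Tregs. In the DLN, Il7r overlapped, with 635, 476 and 678 CPM in CD127hi and 265, 784 and 516 CPM in CD127-/lo Tregs. Of the DLN/naive libraries, replicates 1 and 2 had 405 and 459 CPM of the female transcript Xist, while replicate 3 had 1.24 CPM of Xist and 148 CPM of the Y-linked Kdm5d, against the female sex that the methods give. EGFP, the reporter of the sort, was low in 3 DLN libraries, with 1.64 CPM in replicate 1 of DLN/CD127-/lo, 2.84 CPM in replicate 1 of DLN/naive and 5.18 CPM in replicate 3 of DLN/CD127hi, the library with the high Anxa1 level. The DLN/CD127hi libraries, from male mice, had 72.6–141 CPM of Kdm5d, while replicates 1 and 2 of DLN/naive had 0. Without replicate 3, sex and tolerance thus cannot be told apart in differences from DLN/naive Tregs, and with it they remain mixed. Differences of the listed genes from DLN/naive Tregs are given with and without replicate 3. For their relatives, the calls lost without it are named.

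Adam8, the metalloprotease, had its 4 highest group means of all 11 in Tregs of tolerant mice. SP/naive Tregs had 0, 9.47 and 10.1 CPM, SP/CD127-/lo Tregs 1.41, 15.1 and 28.7 CPM, and SP/CD127hi Tregs 26.9, 58.8 and 106 CPM. Graft Tregs had 85.3, 38.4 and 123 CPM, above every library of SP/naive and of SP/CD127-/lo Tregs. The mean in graft Tregs was 82.4 ± 42.5 CPM, 12.6-fold that of SP/naive and 5.46-fold that of SP/CD127-/lo Tregs (ratios of mean CPM). In the DLN, CD127hi Tregs had 89.6, 20.5 and 71.5 CPM and naive Tregs 1.42, 1.40 and 18.6 CPM, without overlap. DLN/CD127-/lo Tregs overlapped the CD127hi group with 19.1, 85.6 and 4.09 CPM. The log2 fold change of DLN/CD127hi against DLN/naive Tregs was 3.07, and 5.38 without replicate 3 of the naive group.

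Serpinb1a, the inhibitor of granule proteases, had reads in every SP/CD127hi library and none in the graft. It had 12.5, 54.8 and 29.8 CPM in SP/CD127hi Tregs, and no read in any library of SP/CD127-/lo or graft Tregs. SP/CD127hi Tregs were thus at least 39.1-fold higher than SP/CD127-/lo Tregs, taking 3 counts per library as the limit. SP/naive Tregs had 12.9, 10.5 and 4.04 CPM, which overlapped SP/CD127hi Tregs and lay above the graft, where the gene was at least 10.9-fold lower. In the DLN, CD127hi Tregs had 270, 14.2 and 7.26 CPM, and naive Tregs had no read, with or without replicate 3. The difference from them was at least 47.8-fold, and the mean of 97.0 ± 150 CPM rested on replicate 1. DLN/CD127-/lo Tregs had 0.545, 5.97 and 0 CPM, below every DLN/CD127hi library. The near copies Serpinb1b and Serpinb1c had 9 and 8 read pairs over all libraries, against 4275 on Serpinb1a.

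Ctla2a was highest in graft Tregs. The graft libraries had 203, 140 and 36.0 CPM, SP/naive Tregs 11.3, 4.06 and 9.85 CPM, and SP/CD127-/lo Tregs 29.4, 5.53 and 6.74 CPM. The lowest graft library was above every library of both groups, and the graft mean of 127 ± 84.5 CPM was 15.1-fold that of SP/naive Tregs. Mitochondrial genes took 6.74, 4.33 and 5.30% of the graft read pairs on genes, against 2.42, 2.33 and 1.81% in SP/naive and 4.35, 2.32 and 3.18% in SP/CD127-/lo Tregs. The share was highest in graft replicate 1, which had the highest Ctla2a and Rgs2, and its part in the graft results was not tested. SP/CD127hi Tregs had 55.9, 24.5 and 39.9 CPM, above SP/naive Tregs but overlapping SP/CD127-/lo Tregs. In the DLN, CD127hi Tregs had 94.4, 70.1 and 6.22 CPM against no read in naive Tregs, at least 28.0-fold higher, and the naive group had no read without replicate 3 either. DLN/CD127-/lo Tregs overlapped the CD127hi group with 0, 27.9 and 43.3 CPM. Ctla2b was at or under 3.22 CPM in all but 3 libraries and reached 10.6 CPM in 1 graft and 10.5 CPM in 1 DLN/naive library. Reads that fit both copies equally, or that fall in the overlapping genes, may be missing from the counts of either.

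Rgs2, the most abundant of the 8 genes in graft Tregs per kb of exon, was higher in graft than in SP/naive Tregs and did not separate CD127hi from CD127-/lo Tregs. Graft Tregs had 542, 359 and 74.8 CPM and SP/naive Tregs 53.4, 6.09 and 31.3 CPM, without overlap. SP/CD127-/lo Tregs had 223, 137 and 58.3 CPM and SP/CD127hi Tregs 156, 101 and 69.8 CPM, which overlapped each other. The mean of SP/CD127hi Tregs was 0.781-fold that of SP/CD127-/lo Tregs and 3.59-fold that of SP/naive Tregs. In the DLN, CD127hi Tregs had 0, 113 and 125 CPM, CD127-/lo Tregs 82.3, 4.98 and 51.5 CPM and naive Tregs 54.7, 144 and 47.7 CPM, so that all 3 groups overlapped. The log2 fold change of DLN/CD127hi against DLN/naive Tregs was -0.04, and -0.32 without replicate 3 of the naive group.

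Kctd12 was at or near 0 in Tregs of naive mice and uneven in the others. SP/naive Tregs had 0, 0 and 0.505 CPM and DLN/naive Tregs 0, 0 and 0.620 CPM, all under 3 counts. SP/CD127hi Tregs had 22, 0.306 and 11.9 CPM, DLN/CD127hi Tregs 51.6, 54.3 and 0 CPM, and graft Tregs 0, 1.10 and 31.9 CPM. Each of these groups thus held both libraries near 0 and libraries with reads, and overlapped its naive group. SP/CD127-/lo Tregs had 1.70, 1.01 and 0 CPM and DLN/CD127-/lo Tregs 0, 21.9 and 0.818 CPM. The log2 fold change of graft against SP/CD127-/lo Tregs was 3.54, and -0.68 without graft replicate 3. On 146 against 2 counts, the ratio of summed counts per summed scaled total of SP/CD127hi to SP/naive Tregs was 67.3. Its 95% counting interval was 18.3 to 561. In the DLN the same ratio to naive Tregs was 166 (29.3 to 6625) on 122 counts against 1, which lay in replicate 3 of the naive group. Counting intervals, here and below, cover counting error only and leave out the spread between libraries, which was wide for this gene. The exon of Kctd12 overlaps Gm26778 on the other strand and Mir5130, and counting over both strands left out 9.81% of its read pairs as ambiguous. Its relative Kctd12b had 39.0, 23 and 0 CPM in SP/CD127hi Tregs and at most 4.74 CPM in SP/naive, SP/CD127-/lo and graft Tregs.

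Anxa1 was carried by single libraries in the DLN. DLN/CD127hi Tregs had 4.87, 0.787 and 234 CPM and DLN/CD127-/lo Tregs 1.64, 191 and 0 CPM, so that 1 library of each group held nearly all of its reads. DLN/naive Tregs had 0, 11.2 and 0 CPM. Without replicate 3 of DLN/CD127hi, the log2 fold change against DLN/naive Tregs turned from 4.41 to -0.46 and that against DLN/CD127-/lo Tregs from 0.32 to -4.48. Without replicate 3 of DLN/naive the former was 3.82. In the spleen, CD127hi Tregs had 32.8, 0.306 and 14.5 CPM against 0.275, 0 and 0 CPM in naive Tregs. The lowest SP/CD127hi library and the highest naive one had 1 read pair each, so that their order says little. The ratio of summed counts per summed scaled total was 190, with a 95% counting interval of 33.7 to 7538. The graft libraries had 4.87, 20.6 and 37.5 CPM, above every SP/naive library, and SP/CD127-/lo Tregs overlapped both with 13.6, 1.01 and 0.293 CPM.

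Nebl was uneven too, with its highest levels in graft replicate 3 and in DLN/CD127-/lo replicate 2, which were also high in Anxa1. Graft Tregs had 7.58, 22.8 and 167 CPM, SP/CD127hi Tregs 29.5, 23.9 and 5.21 CPM and SP/naive Tregs 0.551, 4.40 and 2.27 CPM. Both groups were above SP/naive Tregs in every library, and the graft mean of 65.7 ± 87.9 CPM rested on replicate 3. SP/CD127-/lo Tregs had 5.93, 15.6 and 0.293 CPM, which overlapped both. In the DLN, the highest library was in the CD127-/lo group, which had 2.18, 103 and 0 CPM against 23.4, 2.36 and 0 CPM in CD127hi Tregs. The log2 fold change of CD127hi against CD127-/lo Tregs there was -2.02, and 2.96 without replicate 2 of DLN/CD127-/lo. DLN/naive Tregs had 0, 1.40 and 0 CPM. The ratio of DLN/CD127hi to them in summed counts per summed scaled total was 18.4, with a 95% counting interval of 4.63 to 160 on 27 against 2 counts. Without replicate 3 of the naive group the log2 fold change was 3.53.

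Among Treg groups, Plac8 was highest in DLN/CD127hi, while CD45+CD4- cells had means of 838 and 511 CPM in tolerant and naive mice. The DLN/CD127hi libraries had 110, 92.1 and 62.2 CPM, while DLN/CD127-/lo Tregs had 13.6, 1.99 and 0 CPM and DLN/naive Tregs no read, with or without replicate 3, so that neither overlapped them. The mean of 88.1 ± 24.1 CPM was 16.9-fold that of DLN/CD127-/lo Tregs, whose mean rested on replicate 1. The log2 fold change of 3.98 between them ranged from 3.39 to 6.52 over the alternatives. Summed B cell, macrophage and dendritic cell markers also had their highest Treg means in DLN/CD127hi, as given beside the marker sums. In the spleen the order was the other way, with 23.5, 0.612 and 8.68 CPM in CD127hi and 60.7, 8.55 and 0.293 CPM in CD127-/lo Tregs, which overlapped. The log2 fold change there was -1.07, and 1.30 without replicate 1 of SP/CD127-/lo. Graft Tregs had 11.4, 11 and 43.5 CPM and SP/naive Tregs 13.8, 3.72 and 1.52 CPM, which overlapped as well. The log2 fold change of graft against SP/CD127-/lo Tregs was -0.08, and 2.29 without replicate 1 of SP/CD127-/lo, and that of SP/CD127hi against SP/naive Tregs 0.79, and -0.44 without replicate 1 of SP/CD127hi.

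**Figure D1:**
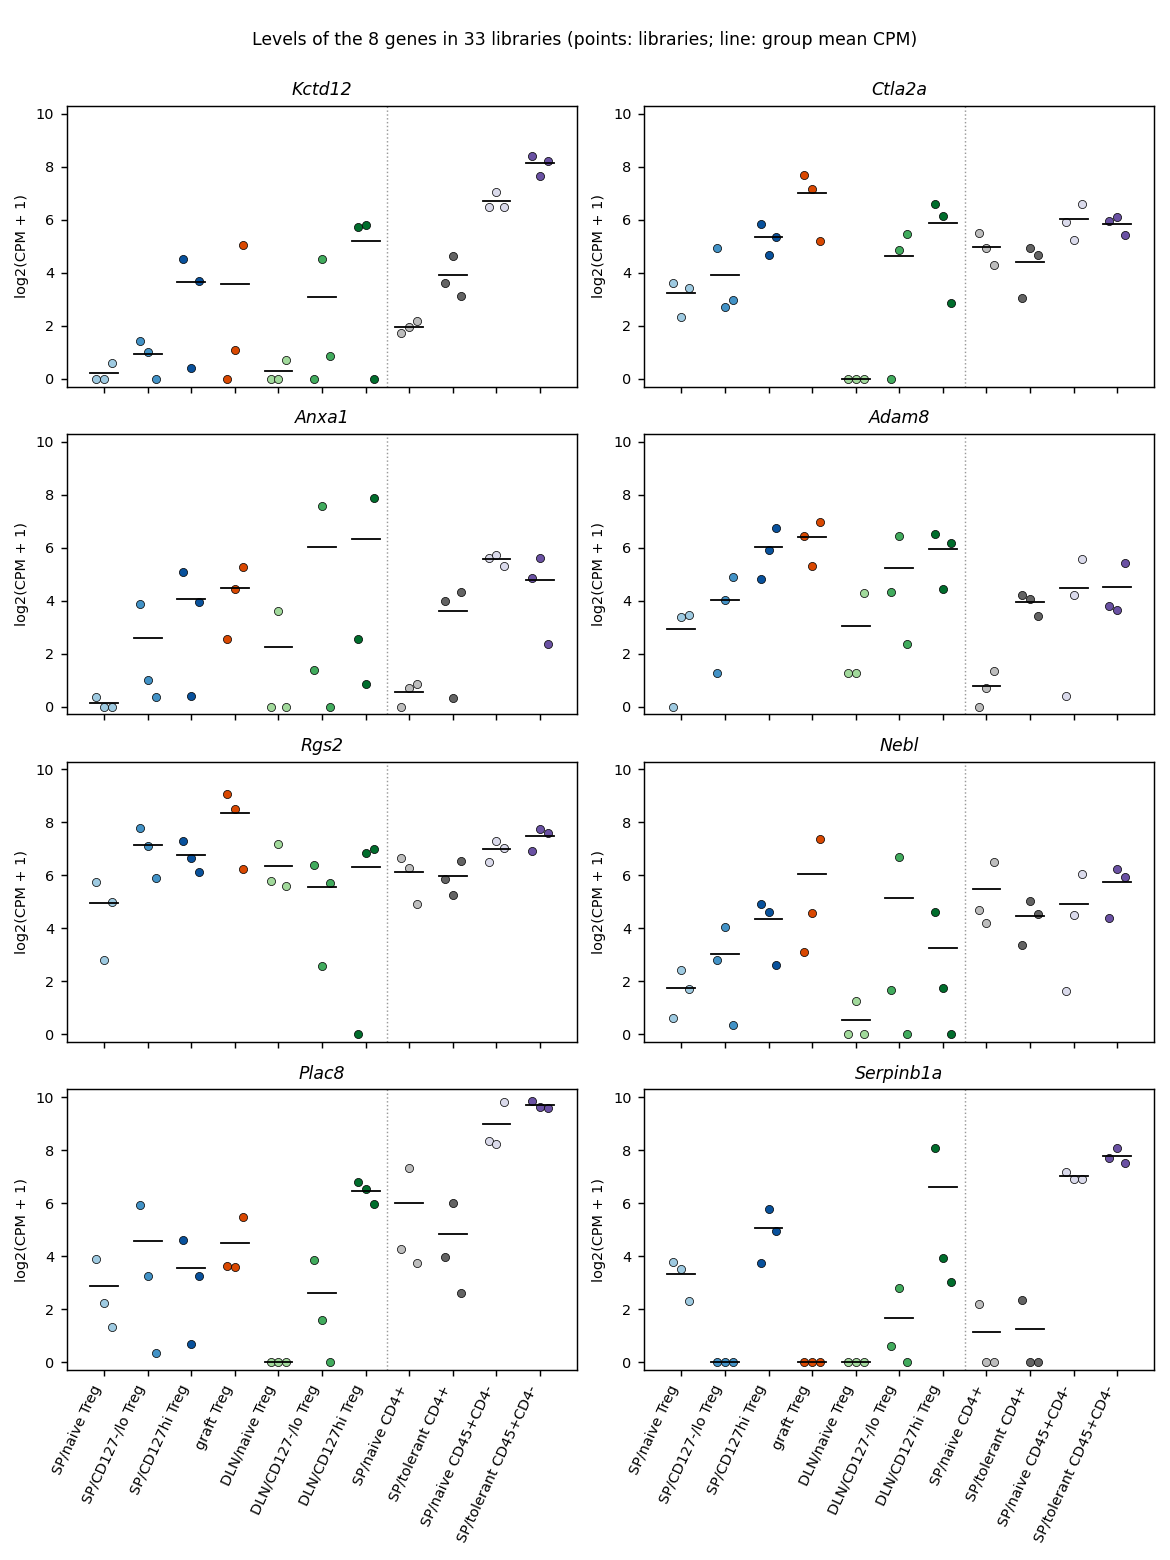
Levels of the 8 genes as log2(CPM + 1) on the y axis for the 11 groups on the x axis, with 1 point per library and a line at the log2 of the mean CPM plus 1; the dotted line parts 7 Treg groups from 4 Foxp3- groups. Serpinb1a was at 0 in all graft and SP/CD127-/lo libraries, while Kctd12, Plac8 and Serpinb1a had their highest means in CD45+CD4- cells.

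Each of the 8 genes had its highest Treg mean in a CD127hi or graft group. Kctd12, Anxa1, Plac8 and Serpinb1a were highest in DLN/CD127hi Tregs and Ctla2a, Adam8, Rgs2 and Nebl in graft Tregs. This follows from the choice of the genes. With 1 library left out at a time, the number was 7 or 8.

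The 6 comparisons that chose the genes share their reference groups, and their values are set side by side in the plot of fold changes between Treg groups. Against SP/naive Tregs, SP/CD127hi means were higher for 8 of 8 genes, and the libraries did not overlap for 5 (Ctla2a, Anxa1, Adam8, Rgs2 and Nebl), where 3.55% of 25347 genes were higher without overlap. Against SP/CD127-/lo Tregs, 6 means were higher, and only Serpinb1a did not overlap (6.07% of all genes). In the DLN, 7 of 8 CD127hi means were higher than in naive Tregs and 4 did not overlap (Ctla2a, Adam8, Plac8 and Serpinb1a, against 5.08% of all genes). Against DLN/CD127-/lo Tregs, 7 means were higher and 2 did not overlap (Plac8 and Serpinb1a, against 2.25%). Graft means were higher than in SP/naive Tregs for 7 genes, of which 5 did not overlap (Ctla2a, Anxa1, Adam8, Rgs2 and Nebl, against 3%), and Serpinb1a was lower without overlap (5.15% of all genes were). Against SP/CD127-/lo Tregs, 6 graft means were higher and 2 did not overlap (Ctla2a and Adam8, against 3.15%). The median log2 fold change of the 8 genes was between 1.02 and 5.74 in the 6 comparisons, and that of all genes between -0.01 and 0.40. With genes that had no read in 1 group put at their bound, the median in DLN/CD127hi against DLN/naive Tregs was 4.61 in place of 5.74. All genes together shifted most in DLN/CD127hi against DLN/naive Tregs. The choice of the genes was made on these same values, and the counts are no support for it.

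**Figure D2:**
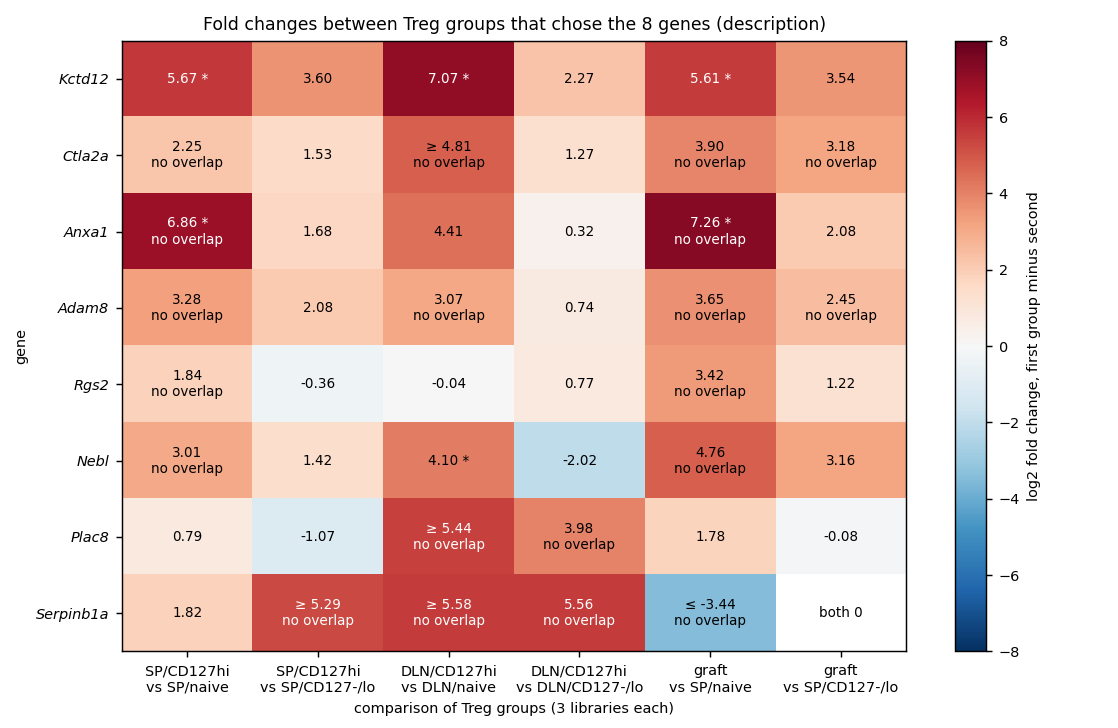
Log2 fold changes (colour and digits, first group minus second) of the 8 genes in rows for the 6 comparisons of Treg groups in columns. A bound at 3 counts per library (≥ or ≤) is given where 1 group had no read, an asterisk marks a second group with 1 to 3 counts in all, and "no overlap" marks groups whose libraries did not overlap; values of Rgs2 were -0.36 in SP/CD127hi against SP/CD127-/lo and -0.04 in DLN/CD127hi against DLN/naive Tregs.

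Markers of other cell types moved with some of these values. The summed level of 8 B cell markers was 272–579 CPM in DLN/CD127hi Tregs, 79.0–279 CPM in DLN/CD127-/lo and 12.6–56.8 CPM in DLN/naive Tregs, with Fcer2a at 0 in the naive group. The summed level of 10 macrophage and monocyte markers was 600–898 CPM in DLN/CD127hi Tregs, with Fcgr3 and Itgam at 0, 102–748 CPM in DLN/CD127-/lo and 4.90–429 CPM in DLN/naive Tregs. The DLN/CD127-/lo library with the high Anxa1 and Nebl levels, replicate 2, also had the highest B cell sum (279 CPM), macrophage sum (748 CPM) and sum of 5 NK cell markers (107 CPM) of its group. In the graft, replicate 3, which held the highest Kctd12, Nebl, Anxa1, Plac8 and Adam8 levels, had a macrophage sum of 473 CPM, with Csf1r, Adgre1 and C1qa at 0 in the group, and replicates 1 and 2 had 76.1 and 0 CPM. Its B cell sum was 52.7 CPM, against 0.812 and 6.86 CPM in replicates 1 and 2. The sum of 8 kidney epithelial markers was 117, 893 and 17.9 CPM in graft replicates 1, 2 and 3 and at most 26.9 CPM in other Treg libraries. In the spleen, replicate 2 of SP/CD127hi, with Kctd12, Anxa1 and Plac8 under 1 CPM, had the lowest B cell sum of its group (7.04 CPM, against 88.6 and 81.1 CPM) and a macrophage sum of 215 CPM, between the others. Summed neutrophil markers were at most 3.10 CPM in 20 of 21 Treg libraries and 18.5 CPM in replicate 1 of DLN/CD127hi, which held the highest Serpinb1a level. The NK cell sum was 174, 52.8 and 0 CPM in DLN/CD127hi replicates 1, 2 and 3, in the same order as Serpinb1a, against 0–1.42 CPM in DLN/naive Tregs. The sum of 6 dendritic cell markers, read because Plac8 is known from such cells, was 127, 41.7 and 8.29 CPM in DLN/CD127hi, 0.818–26.9 CPM in DLN/CD127-/lo and 4.20–12.8 CPM in DLN/naive Tregs. In the spleen it was 21.4–68.0 CPM in CD127hi and 0.586–2.83 CPM in CD127-/lo Tregs, without overlap and with all but Zbtb46 at 0 in the latter, and 19.3–38.6 CPM in naive Tregs. Graft Tregs, at 20.6–26.8 CPM with Clec9a and Siglech at 0, were above SP/CD127-/lo Tregs as well. The macrophage sum was 151–248 CPM in SP/CD127hi against 27.0–123 CPM in SP/naive Tregs, without overlap, and 8.30–312 CPM in SP/CD127-/lo Tregs. The sum of 6 T cell markers was lower in SP/CD127hi (3184–3642 CPM) than in SP/CD127-/lo Tregs (5730–8724 CPM). The part of these cells in the levels of the 8 genes was not tested. In bulk libraries, a larger share of cells of a type and more RNA per cell cannot be told apart.

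**Figure D3:**
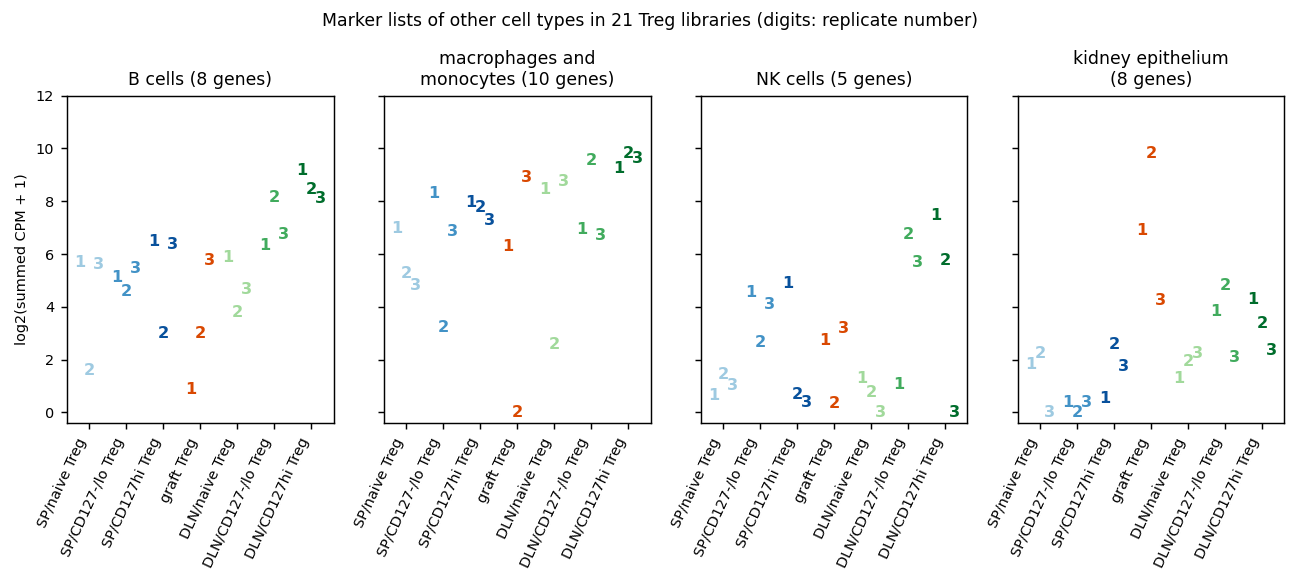
Summed levels of 4 marker lists as log2(summed CPM + 1) on the y axis for the 7 Treg groups on the x axis, with each digit standing for the library of that replicate number. The 3 DLN/CD127hi libraries had the highest macrophage sums beside replicate 2 of DLN/CD127-/lo, and graft replicate 2, with no macrophage marker, had the highest kidney sum.

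Relatives of the 8 genes, which are not among the genes chosen, were tested in the same comparisons. Their lists were drawn up with earlier results of these data known, so that these tests are not fully independent of the data. The 111 listed were the KCTD, annexin, ADAM, RGS, serpin B, nebulin, PLAC8 and cathepsin genes with S100a10 and cystatins, of which 105 were tested. In SP/CD127hi Tregs, 1 of 105 passed the test against SP/CD127-/lo and 1 against SP/naive Tregs (0.0907% and 0.0197% of all genes did). Both calls were of Ctsh, the cysteine protease cathepsin H, which had 8.90, 13.5 and 30.4 CPM against 1.13, 0.252 and 0 CPM in SP/CD127-/lo and 0, 0 and 0.758 CPM in SP/naive Tregs. Its log2 fold changes were 5.13 ± 1.19 (SE, adjusted p = 0.0320) and 5.81 ± 1.25 (SE, adjusted p = 0.0286) by edgeR's quasi-likelihood test. The calls of Ctsh held in 5 and 6 of 14 alternatives, and were lost without any single SP/CD127-/lo library, without SP/naive replicates 1 or 2 and, for both, without SP/CD127hi replicate 3. Both were also lost with the likelihood ratio test (adjusted p = 0.0917 and 0.107), DESeq2 (0.0536 and 0.0538), the stricter filter, ComBat-Seq and the compared libraries alone, so that neither other tool called Ctsh. The dendritic cell sum moved with Ctsh against SP/CD127-/lo Tregs and the macrophage sum against SP/naive Tregs, with the values given above, and Ctsh itself had means of 237 and 291 CPM in CD45+CD4- cells of naive and tolerant mice. The part of such cells in these calls was not tested.

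In DLN/CD127hi against DLN/naive Tregs, 5 of 105 relatives were higher and 1 was lower (0.951% of all genes passed). Ctsh had 102, 41.7 and 4.15 CPM against no read (adjusted p = 4.31e-05). The dendritic cell sum of the same libraries, 127, 41.7 and 8.29 CPM, fell in the same order, and the B cell and macrophage sums given above were higher than in DLN/naive Tregs without overlap. The part of such cells in the calls of Ctsh and the other relatives was not tested. Serpinb6b had 18.5, 15 and 73.6 CPM against no read (adjusted p = 0.00902). Lasp1, an actin-binding relative of Nebl, had 47.7, 59.1 and 14.5 CPM against 4.97, 1.40 and 0 CPM (log2 fold change 4.25 ± 0.93, SE, adjusted p = 0.00281). Cst3, the cysteine protease inhibitor cystatin C, had 631, 438 and 402 CPM against 134, 53.9 and 210 CPM (1.88 ± 0.53, SE, adjusted p = 0.0455). This call was lost without replicate 1 or 2 of DLN/naive, without replicate 1 of DLN/CD127hi and with the likelihood ratio test. Anxa4 had 9.73, 3.94 and 157 CPM against 1.42, 0 and 0 CPM (adjusted p = 0.0455), so that 1 library held nearly all of its reads, and the call was lost without that library (adjusted p = 0.473), without replicate 2 of DLN/naive or with the replicate block. Anxa2, the closest relative of Anxa1 on the list, was lower, with 13.6, 2.36 and 2.07 CPM against 0, 65.2 and 240 CPM, which overlapped (-4.08 ± 1.03, SE, adjusted p = 0.0198). Without replicate 3 of DLN/naive, the only library of that group with the male pattern of the tolerant mice, the calls of Anxa2 and Anxa4 were lost. That of Anxa2 was lost without replicate 2 or 3 of DLN/CD127hi as well, and none of the 6 calls held when the fit was limited to the libraries compared. Against DLN/CD127-/lo Tregs, 0 of 105 passed (0.418% of all genes did), with 19 at an unadjusted p under 0.05, 1 call by the likelihood ratio test and 7 by DESeq2.

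In graft Tregs, S100a10, the partner of annexin A2, was the 1 relative of 105 called against SP/naive Tregs by edgeR's quasi-likelihood test (0.13% of all genes passed). It had 3351, 2838 and 2108 CPM against 1247, 791 and 1199 CPM, a log2 fold change of 1.36 ± 0.29 (SE, adjusted p = 0.00680). In the same libraries the kidney epithelial sum was 17.9–893 CPM against 0–3.72 CPM. The mitochondrial shares given with Ctla2a were also higher in the graft without overlap. The part of either in the S100a10 level was not tested. The call held in 9 of 14 alternatives and was lost without SP/naive replicate 2, without graft replicate 1 and with the likelihood ratio test, which called 1 other relative. Against SP/CD127-/lo Tregs, 0 of 105 passed (0.0829% of all genes did), with 11 at an unadjusted p under 0.05, none by the likelihood ratio test and 2 by DESeq2. The median log2 fold change of the relatives was between 0 and 0.48 in the 6 comparisons.

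The Foxp3- groups did not enter the choice of the 8 genes, so that tests of them do not reuse the values of the choice. They are not fully independent of it, because the fit takes its spread from all 33 libraries, Tregs included. All 8 passed the filter on low counts. The first question was whether the genes differed in cells other than Tregs between tolerant and naive mice. In CD4+Foxp3- T cells, 0 of 8 passed edgeR's quasi-likelihood test (0.107% of 25347 genes did), 3 of 8 had an unadjusted p under 0.05, and the likelihood ratio test and DESeq2 called 0. Adam8 had 17.6, 15.7 and 9.78 CPM in tolerant against 0, 0.633 and 1.57 CPM in naive mice, without overlap (log2 fold change 4.24 ± 1.42, SE, adjusted p = 0.467). Kctd12 had 11.2, 23.7 and 7.72 CPM against 2.30, 2.85 and 3.53 CPM, also without overlap (2.28 ± 1.15, SE, adjusted p = 0.692). These were 2 of 8 genes, where 4.45% of all genes were higher without overlap. Anxa1 had 14.8, 0.249 and 18.8 CPM against 0, 0.633 and 0.784 CPM and overlapped (4.48 ± 1.62, SE, adjusted p = 0.538). Over the alternatives the adjusted p was 0.131–0.894 for Adam8, 0.563–1 for Kctd12 and 0.453–0.877 for Anxa1. The other 5 genes had log2 fold changes between -1.19 for Plac8 and 0.18 for Serpinb1a. The median of the 8 genes was 0.02 and that of all genes -0.23.

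In CD45+CD4- cells, 0 of 8 passed the same test between tolerant and naive mice (0.0355% of all genes did), 0 of 8 had an unadjusted p under 0.05, and the likelihood ratio test and DESeq2 called 0. Kctd12 (339, 199 and 297 against 88.0, 131 and 88.5 CPM) and Serpinb1a (207, 274 and 181 against 146, 121 and 120 CPM) were higher without overlap, 2 of 8 genes where 3.75% of all genes were. Their log2 fold changes were 1.44 ± 1.09 and 0.77 ± 1.03 (SE, both adjusted p = 1). In the same libraries the B cell sum (5670–7190 against 3552–5218 CPM) and the dendritic cell sum (149–208 against 85.4–112 CPM) were higher without overlap, and the T cell sum was lower without overlap (528–709 against 932–2017 CPM). Neutrophil sums were 331–2750 against 45.8–596 CPM and overlapped. The part of this composition in the levels of Kctd12 and Serpinb1a was not tested. For the difference between the effect in CD4+Foxp3- T cells and that in CD45+CD4- cells, 0 of 8 genes passed (0.0473% of all genes did), 2 of 8 had an unadjusted p under 0.05, and neither other tool called any. The largest differences were 5.28 ± 2.07 for Anxa1 (SE, adjusted p = 0.722) and 4.20 ± 1.81 for Adam8 (SE, adjusted p = 0.822) on the log2 scale.

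The second question was whether the genes are marks of other blood cells of the spleen. In naive mice, Serpinb1a, Kctd12, Plac8 and Anxa1, 4 of 8, were higher in CD45+CD4- cells than in CD4+Foxp3- T cells (0.659% of all genes were called higher and 1.04% in either direction), and none was lower. Serpinb1a had 146, 121 and 120 CPM against 3.61, 0 and 0 CPM (log2 fold change 6.68 ± 1.35, SE, adjusted p = 0.000365). Kctd12 had 88.0, 131 and 88.5 CPM against 2.30, 2.85 and 3.53 CPM (5.13 ± 1.29, SE, adjusted p = 0.0130). Plac8 had 327, 300 and 906 CPM against 18.4, 159 and 12.5 CPM (3.01 ± 0.76, SE, adjusted p = 0.0131). Anxa1 had 47.7, 52.2 and 38.6 CPM against 0, 0.633 and 0.784 CPM (6.51 ± 1.75, SE, adjusted p = 0.0281). In none of the 4 did the libraries overlap, where 7.13% of all genes were higher without overlap. Only the call of Serpinb1a held in all 14 alternatives, against 11 for Kctd12, 8 for Anxa1 and 7 for Plac8, and without replicate 1 of the naive CD4+Foxp3- T cells it was the only one left (adjusted p = 0.0858 for Kctd12, 0.131 for Plac8 and 0.156 for Anxa1). Anxa1 was also lost without replicate 2 or 3 of these T cells, and Plac8 without replicate 3 of either group. Adam8 (adjusted p = 0.0820) passed in 2 of 14 alternatives, at 0.0117 with DESeq2 and at 0.0439 without replicate 1 of the CD45+CD4- cells.

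In tolerant mice, Plac8, Serpinb1a and Kctd12 were higher in CD45+CD4- cells, 3 of 8 (0.777% of all genes were called higher and 1.53% in either direction). Plac8 had 930, 803 and 782 CPM against 14.6, 63.3 and 5.15 CPM (log2 fold change 4.92 ± 0.83, SE, adjusted p = 2.68e-06). Serpinb1a had 207, 274 and 181 CPM against 4.10, 0 and 0 CPM (7.27 ± 1.37, SE, adjusted p = 5.70e-05). Kctd12 had 339, 199 and 297 CPM against 11.2, 23.7 and 7.72 CPM (4.29 ± 1.22, SE, adjusted p = 0.0387), a call that held in 4 of 14 alternatives and was lost without any single library of either group. Rgs2 had 120, 215 and 195 against 57.7, 37.9 and 91.4 CPM and Ctla2a 61.0, 66.8 and 41.7 against 7.29, 29.6 and 24.2 CPM, both without overlap as well, which made 5 of 8 genes (10.8% of all genes), but did not pass (adjusted p = 0.392 and 0.687). Rgs2 passed in 1 of 14 alternatives, the compared libraries alone (adjusted p = 0.00889). Nebl, Anxa1 and Adam8 overlapped. The comparisons of cell classes and those of tolerant with naive mice use the same 4 groups and are not independent of each other. The CD45+CD4- cells are a mixture, with B cell marker sums of 3552–7190 CPM against 1.96–98.1 CPM in CD4+Foxp3- T cells, NK cell sums of 425–1203 against 65–205 CPM and neutrophil sums of 45.8–2750 against 0–1.90 CPM. Which of these cells held these genes was not tested.

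**Figure D4:**
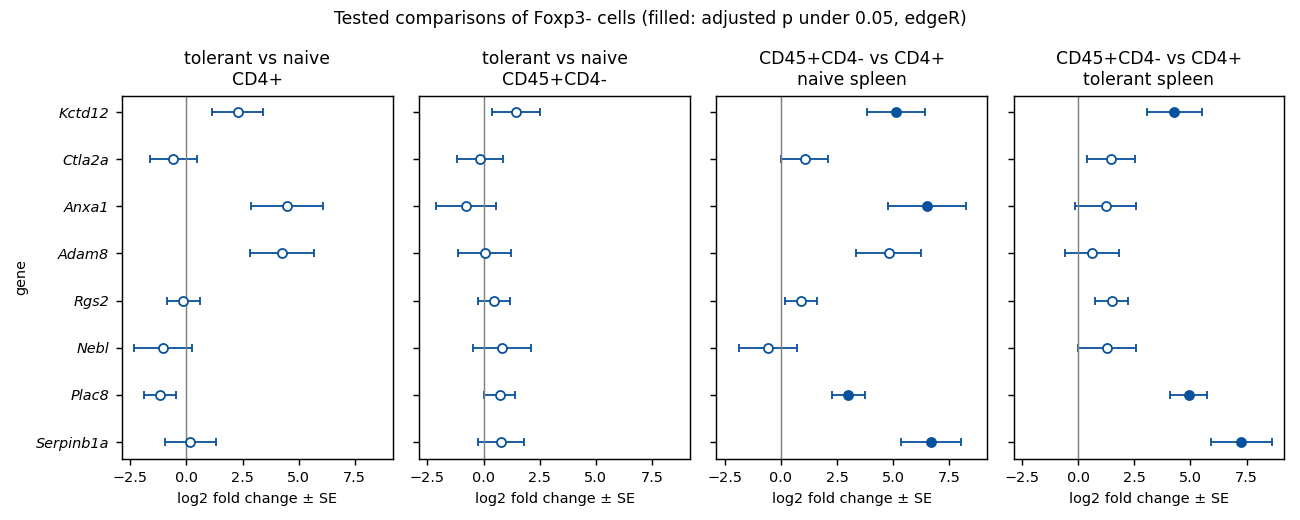
Log2 fold changes with their SE on the x axis for the 8 genes on the y axis in 4 comparisons of Foxp3- cells, filled where edgeR's adjusted p was under 0.05. Serpinb1a, Plac8 and Kctd12 were filled in both comparisons of CD45+CD4- with CD4+Foxp3- T cells and Anxa1 in that of naive mice, and none was filled between tolerant and naive mice.

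Relatives were compared in the same groups. Between tolerant and naive mice, 0 of 105 relatives passed in CD4+Foxp3- T cells and 0 of 105 in the CD45+CD4- population by edgeR's quasi-likelihood test, where 7 and 3 had an unadjusted p under 0.05, the likelihood ratio test called 0 in both and DESeq2 called 1 and 0 (0.107% and 0.0355% of all genes passed). Between CD45+CD4- cells and CD4+Foxp3- T cells, Ctsh was higher (237 ± 84.6 against 7.31 ± 10.7 CPM in naive and 291 ± 57.3 against 14.1 ± 11.3 CPM in tolerant mice, adjusted p = 0.00250 and 0.00855, each lost without CD4+ replicate 1 or 3). Rgs10, a regulator of the same class as Rgs2, was lower in both (52.2 ± 35.4 against 343 ± 59.7 and 40.2 ± 18.7 against 218 ± 73.4 CPM, adjusted p = 5.05e-05 and 0.000336). Rgs13, known from germinal centre B cells, was higher in both (adjusted p = 0.0453 and 0.00822). The naive call of Rgs13 held in 6 of 14 alternatives and was lost without any 1 of the naive CD4+ libraries or without CD45+CD4- replicate 3. It was also lost with DESeq2, the stricter filter, ComBat-Seq or the replicate block. The tolerant call was lost without any 1 of the tolerant CD4+ libraries or with ComBat-Seq. Rgs1 was lower in tolerant mice alone by this threshold (18.4 ± 29.8 against 152 ± 41.5 CPM, adjusted p = 1.18e-06). For the difference between tolerant and naive mice (the interaction), 0 of 105 relatives passed, Rgs1 included (log2 difference 2.22 ± 0.66, SE, CD4+Foxp3- T cells minus CD45+CD4- cells, adjusted p = 0.343), with 5 at an unadjusted p under 0.05 and none called by the likelihood ratio test or DESeq2 (0.0473% of all genes passed). Ctsw and Rgs18 were higher and S100a10 was lower in naive mice (adjusted p = 0.0292, 0.0444 and 0.00902). The calls of Ctsw and Rgs18 held in 8 of 14 alternatives each and were lost without any 1 of the naive CD4+ libraries, Ctsw also without CD45+CD4- replicate 1 and Rgs18 without replicate 3, and that of S100a10 was lost without CD45+CD4- replicate 1 or 2 and with the likelihood ratio test. In all, 6 and 4 of 105 passed, where 1.04% and 1.53% of all genes did.

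Over all 11 groups, Kctd12, Plac8 and Serpinb1a had their highest means in tolerant CD45+CD4- cells and the next in naive CD45+CD4- cells. For Kctd12 the tolerant and naive CD45+CD4- groups and DLN/CD127hi Tregs (278, 103 and 35.3 CPM) followed each other without overlap, and for Plac8 (838, 511 and 88.1 CPM) the first pair overlapped and the second did not. For Serpinb1a (221, 129 and 97.0 CPM) the first pair did not overlap and the second did. Anxa1 was highest in DLN/CD127hi Tregs (80.0 ± 134 CPM), and its neighbours in the order of means overlapped throughout. Adam8, Rgs2, Nebl and Ctla2a were highest in graft Tregs, each overlapping the group next in the order. Between genes, levels per kb of exon in graft Tregs were 89.7 CPM for Rgs2, 60.0 for Ctla2a, 17.8 for Adam8, 13.8 for Plac8, 7.21 for Anxa1, 4.31 for Nebl, 1.81 for Kctd12 and 0 for Serpinb1a. In tolerant CD45+CD4- cells they were 527 CPM per kb for Plac8, 95.8 for Serpinb1a, 48.7 for Rgs2 and 45.9 for Kctd12.

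The genes whose log2 CPM was most like that of each listed gene were searched among 7551 genes over all 33 libraries, as a description over libraries that share cell classes and depth. Kctd12 was most like Cr2, a complement receptor of B cells (r = 0.874), Serpinb1a like Ighd, the IgD heavy chain (r = 0.837), and Plac8 like Cd8b1, a chain of CD8 (r = 0.779). Ctla2a was most like Id2, an inhibitor of E proteins (r = 0.769, and 0.875 over the 21 Treg libraries). Rgs2 was most like Psmd8 (r = 0.779), Anxa1 like Sae1 (r = 0.650), Nebl like Zfp780b (r = 0.648) and Adam8 like Fgl2, a secreted Treg effector (r = 0.632). Over the 21 Treg libraries, among 7265 genes, the nearest gene was the same for Ctla2a and for Anxa1 (r = 0.771) and another for the rest. It was Fcer1g for Kctd12 (r = 0.678), Prrc2a for Serpinb1a (0.741) and Nipa2 for Plac8 (0.714). For Rgs2 it was Lsm5 (0.864), for Nebl Zfp280b (0.711) and for Adam8 Ppp1r12c (0.697). Among the 8 genes themselves, Kctd12 and Plac8 were most alike over 33 libraries (r = 0.784, and 0.536 over the Treg libraries). Rgs2 was little related to Kctd12 (r = -0.0046, and -0.348 over the Treg libraries).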

How the data were processed

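The authors sorted cells, made SMART-Seq v4 cDNA libraries and deposited counts of read pairs per gene, raw and without normalization, one table per library. The submitters' processing notes and methods name FastQC, Trim Galore, STAR and the mm10 (GRCm38) build, with versions not given in the sources used here; the methods name HTSeq for counting, whereas the deposited tables have the layout of STAR gene counts, and which tool made them is unclear. The unstranded count column was used here. Rows that name no gene, 37.0–63.6% of reads in spleen and graft libraries and 42.8–69.2% in DLN libraries, were left out of the totals. Ensembl ids were matched to symbols with the GRCm38 annotation. Genes with at least 1 CPM in 1 or more libraries (25347) were fitted over all 33 libraries with edgeR 4.0.16 in R 4.3.3 (TMM scaling, quasi-likelihood test, Benjamini-Hochberg adjustment over all genes tested, threshold 0.05). Log2 CPM values use a prior count of 2. Reported log2 fold changes are those of the edgeR fit at its default prior count, and depend on it for genes with few reads. Alternatives were the likelihood ratio test, DESeq2 1.42.0, no and stricter filters on low counts (at least 10 counts in 3 libraries), ComBat-Seq in sva 3.50.0, the replicate number as a block, the compared libraries alone, and each library left out. The fit was tested on simulated data, where it recovered a minority of the changed genes, so that a gene that did not pass is not shown to be unchanged. Likeness is Pearson's r of log2 CPM among genes with a mean log2 CPM of at least 3. Promoters are from RefSeq. Figures were drawn with matplotlib 3.10.9. The 8 genes and all lists were chosen with earlier results of these data known. Named relatives are, per comparison, up to 5 called genes with the smallest adjusted p (ties kept) and the closest paralogs of the 8 genes.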

Additional observations from a re-analysis of the deposited data

How the results depend on the processing

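Of the 47 log2 fold changes described between Treg groups, 38 kept their sign in every alternative, and the 9 that did not were Anxa1 and Rgs2 in 2 comparisons each, Plac8 in 3, and Kctd12 and Nebl in 1 each. Among tested counts, the 4 of the 8 genes called higher in naive CD45+CD4- cells became 2 with the likelihood ratio test and 1 with the stricter filter or ComBat-Seq, and ranged from 1 to 5 with 1 library left out. The 3 in tolerant mice were 2 in every such omission. The counts between tolerant and naive mice and of the interaction stayed at 0. Relatives called in SP/CD127hi against SP/CD127-/lo Tregs (1) were 0 with the likelihood ratio test, the stricter filter and ComBat-Seq, 2 with the compared libraries alone, neither of them Ctsh, and 0 to 2 with 1 library left out. Against SP/naive Tregs (1) they were 0 with those 4 alternatives and 0 to 2. DESeq2 called 1 in each, a gene other than Ctsh. In DLN/CD127hi against DLN/CD127-/lo Tregs (0) they were 1 with the likelihood ratio test, 7 with DESeq2, 2 without a filter and 0 to 2 with 1 library left out, and against DLN/naive Tregs (6) 1 with ComBat-Seq, 0 with the compared libraries alone and 4 to 8. In graft against SP/naive Tregs (1) they were 2 with DESeq2, without a filter and with the replicate block, 0 with the stricter filter and ComBat-Seq, 0 to 2 with 1 library left out, and 1 other gene in place of S100a10 with the likelihood ratio test, and against SP/CD127-/lo Tregs (0) 2 with DESeq2 and 0 to 1.

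Fold changes of the 8 genes that did not pass the test turned in sign when 1 library was left out, and none of these is a call. Between tolerant and naive CD4+Foxp3- T cells the log2 ranges were -0.52 to 0.17 for Rgs2, -1.47 to 0.0189 for Nebl, -2.72 to 0.84 for Plac8 and -4.86 to 5.02 for Serpinb1a, which was -0.0142 with ComBat-Seq. Between tolerant and naive CD45+CD4- cells they were -0.45 to 0.22 for Ctla2a and -0.80 to 1.29 for Adam8. Between CD45+CD4- cells and CD4+Foxp3- T cells they were -1.81 to 0.49 for Nebl in naive mice and -0.21 to 0.95 for Adam8 in tolerant mice. For the interaction they were -3.43 to 0.12 for Plac8 and -5.63 to 4.29 for Serpinb1a. The causes were not tested. Deviations of same-numbered libraries correlated between -0.13 and 0.074, so no pairing by replicate number was seen. With so few libraries per group, this cannot exclude that libraries of different cell groups share mice. The replicate block changed no count of the 8 genes. In DLN libraries, a count of 0 allows a level of up to 1.64–3.11 CPM.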
